A study of Mus musculus with 6 samples.

Results

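Lentiviral lineage barcodes mark the descendants of single cells, and 4 of them were followed here: bc14-22-bc30-18173, bc14-55-bc30-37135, bc14-74-bc30-34057 and bc14-89-bc30-6288. They were chosen by their large share of the cells present after the second round of eribulin (ERI2), so the ERI2 shares are the choice itself and not a result. They were called in 1040 of the 27342 cells and nuclei with a called barcode, out of 51785 cells and nuclei and 697 called barcodes in all. bc14-22-bc30-18173 was called in 445 cells, bc14-55-bc30-37135 in 232, bc14-74-bc30-34057 in 147 and bc14-89-bc30-6288 in 216. All cells were PB3, a mouse mammary tumour cell line. Run 2 held cells after 1, 2 or 3 rounds of eribulin (ERI1, ERI2, ERI3), captured in 1 library with hashtag oligos, and cells after 1, 2 or 3 rounds of paclitaxel (PAC1, PAC2, PAC3), captured in another. Run 1 held cells after 4 rounds of eribulin (ERI4 cells) and untreated cells (UNT cells). The labels and 1 column of the cell table name its treated library ERI4, while another column names it ERI1, and the labels were followed. Run 3 held nuclei after 4 rounds of eribulin (ERI4 nuclei) and untreated nuclei (UNT nuclei). A round of eribulin was 72 h at 500 nM followed by 48 h without it. A round of paclitaxel was likewise 72 h followed by 48 h without it, at 100 nM in the first round and 250 nM in later ones.

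Eribulin blocks the growth of microtubules, and paclitaxel stabilises them, so both disturb the mitotic spindle. A lentiviral barcode integrates into the genome of the cell it enters and is copied into every daughter cell, and cells with the same barcode are therefore read as 1 lineage. A founder can take up more than 1 virus, and then all its descendants carry the same pair of barcodes. A barcode is read through its transcript, so a cell with little of that transcript can be missed.

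Each barcode is built from 2 segments on either side of a fixed joint, and the names number the segments. The sequences are shown because the calls rest on telling them apart. Capitals mark the first segment of 14 bases, and the lower case letters are the joint tggt and the second segment of 30 bases.
bc14-22-bc30-18173: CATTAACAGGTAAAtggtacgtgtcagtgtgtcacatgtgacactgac
bc14-55-bc30-37135: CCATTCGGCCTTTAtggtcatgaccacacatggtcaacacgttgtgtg
bc14-74-bc30-34057: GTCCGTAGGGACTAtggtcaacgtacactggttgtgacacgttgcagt
bc14-89-bc30-6288: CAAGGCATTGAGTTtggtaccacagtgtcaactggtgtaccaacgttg
The deposited list crosses 100 first segments with 100000 second segments, giving 10000000 barcodes. Every second segment in it consists only of the base pairs AC, CA, GT and TG, so its GC content is always 50%. First segments of the 4 barcodes had a GC content of 28.6%, 50%, 57.1% and 42.9%, in the order printed. Between any pair of the 4, the first segments differed at 9 to 11 of 14 bases and the second segments at 20 to 26 of 30. The nearest other called barcode was 18 mismatches away from bc14-22-bc30-18173, 16 from bc14-55-bc30-37135, 20 from bc14-74-bc30-34057 and 16 from bc14-89-bc30-6288. Among the 696 other called barcodes, 0 lay within 2 mismatches of any of the 4, and 0 shared a second segment with them. A first segment was shared with 9, 23, 3 and 12 other called barcodes. The 4 sequences are thus far apart from each other and from every other called barcode.

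Each of the 10 conditions came from 1 library, and ERI1 to ERI3 share theirs, as PAC1 to PAC3 do. Cells captured together do not replicate a treatment. Differences were therefore not tested, and values are set side by side. Shares are percentages of the condition's cells with a called barcode, which numbered 1356 in ERI1, 882 in ERI2, 2215 in ERI3, 1792 in PAC1, 569 in PAC2, 2286 in PAC3, 6725 in ERI4 cells, 5087 in UNT cells, 1495 in ERI4 nuclei and 4935 in UNT nuclei. Parentheses after a share hold its exact Clopper-Pearson 95% interval, and a count of 0 stands with the percentage that 3 cells would have given. Both cover counting error only. The part of all cells with a called barcode was uneven. It was 72.1% in ERI4 cells and 46.0% in UNT cells, but 17.2% in ERI4 nuclei and 49.8% in UNT nuclei. In run 2 it lay between 61.2% in PAC1 and 81.9% in PAC3. Ratios of shares were not computed over all cells. A share is relative, so a fall of 1 lineage and a gain of the others cannot be told apart. Median depth ran between 2089 UMIs (counted RNA molecules) in ERI4 nuclei and 20877 in ERI4 cells. The least number of barcode molecules in a called cell was 1 in every run 2 condition, 8 in ERI4 cells, 10 in UNT cells, 183 in ERI4 nuclei and 153 in UNT nuclei. These are molecules of all barcodes in a cell and not of the called barcode alone, and in nuclei they were left as deposited. Calls of run 2 can therefore rest on fewer molecules than those of run 1, and comparisons were made within a run.

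In ERI1 the 4 barcodes together made up 8.41% (6.99 to 10.0), in ERI2 34.0% (30.9 to 37.3) and in ERI3 5.33% (4.43 to 6.35). They held ranks 2, 3, 4 and 6 of the 65 barcodes in ERI2. The most frequent ERI2 barcode, bc14-76-bc30-49517 with 27.4%, was not among them. Nor was bc14-39-bc30-41529, which lay inside their range at rank 5 with 6.46%. The lowest of the 4 had 4.08% of ERI2, and the next barcode below it, bc14-55-bc30-99383, had 3.52%.

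The 4 lineages differed in what followed the second round. bc14-22-bc30-18173 had 36 cells in ERI1 (2.66%, 1.87 to 3.66), 124 in ERI2 (14.1%, 11.8 to 16.5) and 16 in ERI3 (0.722%, 0.413 to 1.17). bc14-55-bc30-37135 had 26 (1.92%, 1.26 to 2.80), 80 (9.07%, 7.26 to 11.2) and 18 cells (0.813%, 0.482 to 1.28) there. bc14-74-bc30-34057 had 33 (2.43%, 1.68 to 3.40), 60 (6.80%, 5.23 to 8.67) and 4 cells (0.181%). These 3 lineages were high in ERI2 and below their own ERI1 share in ERI3. bc14-89-bc30-6288 had 19 (1.40%, 0.846 to 2.18), 36 (4.08%, 2.88 to 5.61) and 80 cells (3.61%, 2.87 to 4.48). By the latest call it alone of the 4 had an ERI3 share above its ERI1 share, and this turned round when at least 10 barcode molecules were required, with 0.970% of ERI1 and 0.522% of ERI3.

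As ratios, the ERI2 share was 5.30 times the ERI1 share for bc14-22-bc30-18173 (3.63 to 7.90) and 4.73 times for bc14-55-bc30-37135 (3.01 to 7.67). It was 2.80 times for bc14-74-bc30-34057 (1.80 to 4.41) and 2.91 times for bc14-89-bc30-6288 (1.63 to 5.38). More than 5-fold higher in ERI2 than in ERI1 were 1 of the 4, beside 9 of 39 barcodes (23.1%), counting those with 10 or more cells in the pair of conditions. The ERI3 share was 19.5-fold lower than the ERI2 share for bc14-22-bc30-18173 (11.5 to 35.1), 11.2-fold lower for bc14-55-bc30-37135 (6.63 to 19.8) and 37.7-fold lower for bc14-74-bc30-34057 (13.97 to 142.7). For bc14-89-bc30-6288 the ratio was 0.885 (0.590 to 1.35), an interval that holds 1. More than 5-fold lower were 3 of the 4, beside 8 of 18 barcodes (44.4%). Both ratios contain the ERI2 shares that chose the lineages, so they are descriptions from which nothing is read.

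Not all ERI3 calls rest on the same amount of barcode RNA, and cells with few barcode molecules lay elsewhere. Of the 18 ERI3 cells of bc14-55-bc30-37135, 10 had at least 10 barcode molecules, and these 10 lay in clusters 5, 6 and 7 (3, 3 and 4 cells), with a median pseudotime of 13.7. The other 8 cells had a median of 1 barcode molecule and a median pseudotime of 22.6, and 5 of them lay in cluster 2. Of the 16 ERI3 cells of bc14-22-bc30-18173, 10 had at least 10 molecules and were spread over cluster 7 (5 cells), cluster 2 (3 cells), cluster 3 (1 cell) and cluster 12 (1 cell), with a median pseudotime of 18.4. The other 6 had a median of 1 molecule and all lay in cluster 2, at a median pseudotime of 22.9. In both lineages the cells with fewer than 10 molecules lay mostly in cluster 2, and 0 of the other cells of bc14-55-bc30-37135 did. The molecules are counted over all barcodes of a cell. With at least 10 molecules, 10 of 10 cells of bc14-55-bc30-37135 and 8 of 10 of bc14-22-bc30-18173 had 2 or more barcodes. With fewer than 10 it was 1 of 8 and 2 of 6. More molecules thus went together with more than 1 barcode, and the part of each was not tested.

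The same split was found for bc14-89-bc30-6288. Of the 80 ERI3 cells of bc14-89-bc30-6288, 76 had fewer than 10 barcode molecules, with a median of 3, and 59 of these lay in cluster 2. The other 4 lay in cluster 7 (2 cells), cluster 3 and cluster 8. Of these 4 cells, 3 had 2 or more barcodes, against 0 of the 76. Among the other barcoded cells of ERI3, 845 of 1355 with fewer than 10 molecules lay in cluster 2, against 114 of 742 with at least 10. Fewer molecules and cluster 2 thus went together in ERI3 generally. With at least 10 molecules required in every cell, the ERI3 share of bc14-89-bc30-6288 was 0.246 times its ERI2 share, in place of 0.885. The part of weak calls in its ERI3 share was not tested.

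Under paclitaxel the lineages were mostly rare, and bc14-74-bc30-34057 was the most frequent of the 4 in PAC1 and PAC2. It had 28 cells in PAC1 (1.56%, 1.04 to 2.25), 18 in PAC2 (3.16%, 1.89 to 4.95) and 1 in PAC3 (0.0437%). Its PAC2 share was 2.03 times its PAC1 share (1.06 to 3.79), short of the 5-fold change that 3 of 59 barcodes passed upward (5.08%). With at least 10 barcode molecules it was 18.5 times, from 8 cells against 1. Its PAC3 share was 0.0138 times its PAC2 share, 72.3-fold lower (11.4 to 3013), and 7 of 25 barcodes were more than 5-fold lower there (28%). Of the 3 paclitaxel rounds, the second thus held the largest share of this lineage.

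The other 3 lineages had few cells under paclitaxel. bc14-22-bc30-18173 had 9 cells in PAC1 (0.502%), 2 in PAC2 (0.352%) and 1 in PAC3 (0.0437%). bc14-55-bc30-37135 had 2 cells in PAC1 (0.112%), 1 in PAC2 (0.176%) and 0 in PAC3, where 3 cells would be 0.131%. bc14-89-bc30-6288 had 13 cells in PAC1 (0.725%, 0.387 to 1.24), 0 in PAC2, where 3 cells would be 0.527%, and 3 in PAC3 (0.131%). The counts in PAC2 and PAC3 are too small to order these rounds.

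The ERI1 and PAC1 shares did not enter the choice of the lineages. After this first round bc14-22-bc30-18173 was 5.29 times as frequent in ERI1 as in PAC1 (2.50 to 12.5). bc14-55-bc30-37135 was 17.2 times as frequent (4.30 to 149.4), from 26 cells against 2. Of these 26 cells, 19 were named Doublet in the original call, and the ratio was 5.82 by the first revision, 4.59 by the original call and 4.12 with exactly 1 detected barcode. That of bc14-22-bc30-18173 was 4.85 by the first revision and 4.91 by the original call, so the side of the 5-fold limit depends on the call for both. For bc14-74-bc30-34057 the ratio was 1.56 (0.913 to 2.68) and for bc14-89-bc30-6288 it was 1.93 (0.905 to 4.26). More than 5-fold higher in ERI1 were 2 of the 4, beside 12 of 74 barcodes (16.2%). The intervals of bc14-74-bc30-34057 and bc14-89-bc30-6288 hold 1, so a difference between the drugs was not detectable for them at this depth. With at least 10 barcode molecules their ratios were 8.82 and 5.43, each from 1 PAC1 cell.

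After the second round the ratio of ERI2 to PAC2 was 40 for bc14-22-bc30-18173 (10.8 to 333.9), from 124 cells against 2. For bc14-55-bc30-37135 it was 51.6 (9.002 to 2064), from 80 cells against 1. It was 2.15 for bc14-74-bc30-34057 (1.25 to 3.87), and bc14-89-bc30-6288 was at least 7.74-fold higher in ERI2, or at least 1.71-fold with at least 10 barcode molecules. By the original call the ratio of bc14-55-bc30-37135 was 4.88. More than 5-fold higher were 3 of the 4, beside 6 of 25 barcodes (24%), and the ERI2 shares chose them. After the third round bc14-89-bc30-6288 was 27.5 times as frequent in ERI3 as in PAC3 (9.09 to 136.3), from 80 cells against 3. bc14-22-bc30-18173 was 16.5 times as frequent (2.57 to 692.5), from 16 cells against 1, and bc14-55-bc30-37135 was at least 6.19-fold higher, from 18 cells against 0, or at least 2.29-fold by the first revision, from 7 cells. bc14-74-bc30-34057 had 4 cells against 1, a ratio of 4.13 (0.409 to 203.3), too few to enter the count. More than 5-fold higher in ERI3 were thus 3 of the 3 with at least 10 cells, beside 8 of 23 barcodes (34.8%). All 3 reached the minimum of 10 cells only through their ERI3 cells. The count thus follows in part from the minimum, and nothing is read from it. The ERI3 cells of bc14-89-bc30-6288 are mostly weakly called, as given above.

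The called barcodes of the paclitaxel library also reach beyond the deposited list. The deposited list of run 2 barcodes has 185 entries, the 4 lineages among them. Cells called with a barcode outside that list numbered 0 in ERI1, ERI2 and ERI3, but 531 in PAC1, 232 in PAC2 and 830 in PAC3. These cells count in the denominators of the paclitaxel shares, and what part this had in the ratios was not tested. Barcodes outside the list were also not left out of the 74, 25 and 23 barcodes compared between the drugs after each round. With 0 eribulin cells they cannot be higher there, which can lower the 16.2%, 24% and 34.8% set beside the 4 lineages. By how much was not tested.

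In run 1 and run 3, bc14-22-bc30-18173 was among the most frequent lineages without treatment and was not called after 4 rounds of eribulin. bc14-22-bc30-18173 had 0 of the ERI4 cells, where 3 would be 0.0446%, against 3.01% (2.56 to 3.52; 153 cells) of UNT cells, in which it ranked 4 of 506 barcodes. It had 0 of the ERI4 nuclei, where 3 would be 0.201%, against 2.11% (1.73 to 2.55; 104 nuclei) of UNT nuclei, where it ranked 3 of 486. The share was at least 67.4-fold lower in ERI4 than in UNT cells and at least 10.5-fold lower in ERI4 than in UNT nuclei. More than 5-fold lower were 95 of 111 barcodes in cells (85.6%) and 29 of 136 in nuclei (21.3%), so in cells the lineage did as most did. The bound in cells lay between 47.2 and 69.3 over the other calls and cell sets tried, and in nuclei between 1.51 (the original call, from 25 UNT nuclei) and 30.1.

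bc14-55-bc30-37135 gave unlike values in cells and in nuclei. It had 0 of the ERI4 cells against 0.688% (0.480 to 0.956; 35 cells) of UNT cells, at least 15.4-fold lower. However, 34 of these 35 UNT cells were named Doublet in the original call, which left 1 of them (0.0486%), and the first revision gave 1 ERI4 cell (0.0156%) against 3 UNT cells (0.118%), so neither earlier call gives a bound. In nuclei it had 0.736% (0.368 to 1.31; 11 nuclei) of ERI4 against 1.20% (0.911 to 1.54; 59 nuclei) of UNT, a ratio of 0.615 (0.292 to 1.18). With nuclei without a called barcode included, these were 11 of 8711 and 59 of 9916, a lower part in ERI4 than the ratio of shares gives. The interval in nuclei holds 1, and the direction depends on the call. The share was 0.120 times as high in ERI4 as in UNT nuclei by the first revision (0.141% against 1.18%) and 3.36 times by the original call (2.45% against 0.728%). The cells and the nuclei are different runs and assays, and the difference between them was not tested.

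bc14-89-bc30-6288 was the reverse. It made up 0.684% (0.501 to 0.911; 46 cells) of ERI4 cells, rank 7 of 16 barcodes, against 0 of the UNT cells. In nuclei it made up 1.27% (0.767 to 1.98; 19 nuclei) of ERI4, rank 7 of 65, against 0 of UNT, where 3 nuclei would be 0.0608%. It was at least 11.6-fold higher in ERI4 than in UNT cells and at least 20.9-fold higher in ERI4 than in UNT nuclei. With nuclei without a called barcode included, it had 19 of 8711 in ERI4 and 0 of 9916 in UNT, for which no bound was computed. More than 5-fold higher were 9 of 111 barcodes in cells (8.11%) and 9 of 136 in nuclei (6.62%). The bound in cells depends on the call, since 35 of the 46 ERI4 cells were named Doublet in the original call. It was at least 5.13-fold higher by the first revision and at least 1.38-fold by the original, and the 9 ERI4 cells with exactly 1 detected barcode give no bound above 1. In nuclei it was at least 4.19-fold higher by the first revision and at least 34.9-fold by the original. The count of 0 limits called cells and not cells that carry the barcode.

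bc14-74-bc30-34057 was close to the limit of detection in both runs. It had 0 of the ERI4 cells and 0 of the UNT cells, where 3 would be 0.0446% and 0.0590%. It had 0 of the ERI4 nuclei against 3 of the UNT nuclei (0.0608%), so no fold is given. A lineage with 60 cells in ERI2 was therefore all but undetected among untreated cells and nuclei. Of the lineages followed, bc14-74-bc30-34057 and bc14-89-bc30-6288 also had the fewest barcode molecules in ERI2, with medians of 9 and 5. Those of bc14-22-bc30-18173 and bc14-55-bc30-37135 were 19.5 and 29.5. In ERI2 cells with exactly 1 detected barcode the medians were 9, 4, 18 and 12, in the same order. The least number in a called UNT cell was 10, and the part of weak barcode signal in their absence was not tested.

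Scaled over the 6 run 2 conditions, the profile of a barcode shows where its cells came from, with each condition weighted equally. By the latest call, ERI2 made up 76.7% of the profile of bc14-22-bc30-18173 and 75.04% of that of bc14-55-bc30-37135. Their profiles overlapped by 95.8%, the most alike for each other among the 51 other barcodes compared. By the original call bc14-55-bc30-37135 had 7, 8 and 7 cells in ERI1, ERI2 and ERI3, in place of 26, 80 and 18. Its ERI2 share was then 1.69 times its ERI1 share, in place of 4.73. No profile was computed by the earlier calls, so the overlap holds for the latest call only. The next most like for both was bc14-38-bc30-83, with overlaps of 94.3% and 92.6%, which had 5, 19 and 2 cells in ERI1, ERI2 and ERI3. ERI2 made up 48.0% of the profile of bc14-74-bc30-34057, and PAC2 another 22.3%. Its most alike barcodes were bc14-49-bc30-30722 with 72.5% and bc14-55-bc30-99383 with 68.6%. The profile of bc14-89-bc30-6288 held 41.0% in ERI2 and 36.3% in ERI3, and overlapped by 79.0% with bc14-39-bc30-41529 and 77.7% with bc14-55-bc30-98358. The overlaps are descriptions of shares that include the ERI2 shares.

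Where the lineages lay in the authors' clusters, which are numbered and carry no cell type here, differed little from the rest in ERI1 and ERI2. The authors clustered all libraries together, and a cluster with cells of mainly 1 library may reflect that library. Cluster 7 held 34 of 36, 26 of 26, 29 of 33 and 19 of 19 ERI1 cells of the 4 lineages, in the order printed above. That is 94.7% of the 4 together, against 91.7% of the other barcoded cells. In ERI2 it held 117 of 124, 80 of 80, 58 of 60 and 35 of 36, 96.7% (94.0 to 98.4) of the 4, against 87.5% (84.5 to 90.04) of the others. The median over the 14 barcodes with at least 10 ERI2 cells was 96.6%, so the lineages lay near the middle of those.

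In ERI3, where cluster 7 held 2.48% of the other barcoded cells, 2 of the lineages were still there in part. Cluster 7 held 5 of 16 cells of bc14-22-bc30-18173 (31.3%), the highest share of 12 barcodes, and 5 of 18 of bc14-55-bc30-37135 (27.8%), the second highest. Of these 10 cells, 9 had at least 10 barcode molecules. The 4 ERI3 cells of bc14-74-bc30-34057 lay in cluster 7, cluster 6 and cluster 2 (2 cells), at pseudotimes of 14.2, 18.4, 22.5 and 22.5. Its cell in cluster 7 had 15 barcode molecules and the other 3 had 2 each. bc14-89-bc30-6288 had 59 of 80 cells (73.8%, 62.7 to 83.0) in cluster 2, against 45.7% of the other barcoded cells.

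Among UNT cells both lineages present lay almost wholly in 1 cluster. Cluster 5 held 140 of 153 cells of bc14-22-bc30-18173 (91.5%, 85.9 to 95.4) and 35 of 35 of bc14-55-bc30-37135 (100%, 90 to 100), against 1161 of 4899 other barcoded cells (23.7%). The median share over the 103 barcodes with at least 10 UNT cells was 5.56%, and 10 of the 103 had at least 90% there. A concentration of this degree was thus found in 10 of 103 barcodes, these lineages included. In UNT nuclei, cluster 0 held 63.5% and 55.9% of the same lineages, against 66.7% of the others, and cluster 11 held 20.2% and 23.7%, against 11.6%. Cluster 5 held 8.65% and 11.9% of their nuclei, against 4.53% of the others. The concentration seen in cells was not seen to that degree in nuclei, where cluster 0 held a median of 65.6% over 130 barcodes. The cluster 5 shares of the 2 lineages were still above the median of 1.81% over these barcodes. Of the 130, 30 had a higher share there than bc14-22-bc30-18173 and 15 a higher one than bc14-55-bc30-37135.

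Under paclitaxel, bc14-74-bc30-34057 lay mainly in the cluster of the early eribulin rounds at its second round. In PAC1 cluster 6 held 18 of its 28 cells (64.3%, 44.1 to 81.4), against 35.5% of the others, and cluster 7 held 0. In PAC2 cluster 7 held 16 of its 18 cells (88.9%, 65.3 to 98.6), the highest of 14 barcodes, against 36.1% of the others and a median of 3.73% over the barcodes. Both PAC2 cells of bc14-22-bc30-18173 lay there as well. bc14-89-bc30-6288 had 9 of 13 PAC1 cells in cluster 6 (69.2%, 38.6 to 90.9).

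After 4 rounds of eribulin, bc14-89-bc30-6288 was spread otherwise than most cells. Cluster 2 held 22 of its 46 ERI4 cells (47.8%, 32.9 to 63.1), against 6.92% of the other barcoded cells, and cluster 3 held 18 (39.1%, 25.1 to 54.6), against 67.5%. Cluster 2 was its largest cluster both in ERI3 and in ERI4 cells. Its 19 ERI4 nuclei lay in cluster 10 (7), cluster 4 (5), clusters 3, 8 and 12 (2 each) and cluster 6 (1), against 42.2% and 30.7% of the others in clusters 10 and 4. The 11 ERI4 nuclei of bc14-55-bc30-37135 had 5 in cluster 4 and 3 in cluster 10.

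Pseudotime is the authors' ordering of all cells from the untreated ones, on an arbitrary scale. The gaps between medians in ERI1 and ERI2 were small on this scale, but 2 lineages lay mostly below the other barcoded cells in ERI2. In ERI1 median pseudotime was 13.6 for bc14-22-bc30-18173, 13.6 for bc14-55-bc30-37135, 14.6 for bc14-74-bc30-34057 and 13.3 for bc14-89-bc30-6288, against 13.6 for the other barcoded cells. In ERI2 it was 13.3 (13.3 to 13.6), 13.1 (13.1 to 13.3), 14.4 (14.2 to 14.7) and 14.5 (13.7 to 14.7), against 14, where parentheses hold an order-statistic interval of the median that covers counting error only. A cell of bc14-55-bc30-37135 was higher than another barcoded ERI2 cell in 17.1% of random pairs, and its median was the lowest of 14 barcodes. For the other 3 the share of pairs was 29.3%, 55.2% and 51.8%, in the order printed above. Within cluster 7 the medians were the same to the digits given, against 13.7 for the others, so the 2 lower lineages were lower there too. The lineages most frequent in ERI2 were thus the 2 lowest of the 4, and bc14-74-bc30-34057 was the highest of the 4 in ERI1. In ERI1 a cell of bc14-74-bc30-34057 was higher in 69.7% of random pairs, and 1 of the 30 barcodes ranked had a higher median.

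In ERI3 the median was 22.6 for bc14-22-bc30-18173, 17.7 (13.6 to 21.6) for bc14-55-bc30-37135 and 22.5 for bc14-89-bc30-6288, against 22.5 for the others. The value of 17.7 joins the 2 sets of cells described above, with medians of 13.7 and 22.6. In PAC2, bc14-74-bc30-34057 had a median of 14.2 (13.7 to 14.7), against 20.4 for the others, and was higher in 22.3% of pairs. Within cluster 7 the medians were 14.2 for the lineage and 14 for the others, with 49.5% of pairs higher, so within that cluster the difference was not seen.

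UNT cells gave a like picture. Median pseudotime was 2.55 (1.87 to 2.69) for bc14-22-bc30-18173 and 2.11 (1.56 to 2.60) for bc14-55-bc30-37135, against 7.74 for the other barcoded cells. Within cluster 5 the medians were 2.14 and 2.11, against 2.35. In ERI4 cells bc14-89-bc30-6288 had a median of 25.5 (25.2 to 25.8), against 28.7, but 7 of the 10 other barcodes with at least 10 cells had lower medians, and with each other barcode counted once it was 7.09 higher. In cluster 2 it had 25.6 against 25.7, but in cluster 3 it had 25.6 against 30.0, higher in 15.95% of pairs. In nuclei the medians were 11.7 and 11.7 for the 2 lineages of UNT nuclei against 13.6, and 24.1 for bc14-55-bc30-37135 and 24.01 for bc14-89-bc30-6288 in ERI4 nuclei against 24.1.

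Phase was read from the authors' S and G2M scores, with G1 where both were at or below 0. In ERI2, G2M made up 41.9% of bc14-22-bc30-18173, 55.0% (43.5 to 66.2) of bc14-55-bc30-37135, 40.0% of bc14-74-bc30-34057 and 38.9% of bc14-89-bc30-6288, against 45.0% of the other barcoded cells. The interval of the highest of these shares holds the value of the other cells. In ERI1 the G2M shares were 33.3% (18.6 to 51.0), 46.2% (26.6 to 66.6), 39.4% (22.9 to 57.9) and 36.8% (16.3 to 61.6), in the order printed above, and these intervals overlap throughout.

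The scores behind the calls placed bc14-89-bc30-6288 lowest of the 4 in ERI2. Its median G2M score was -0.172, with 1 of the other 13 barcodes lower, against -0.0154 for the other barcoded cells, and its median S score was -0.136, against -0.118. bc14-55-bc30-37135 had a G2M score of 0.0973 (-0.0671 to 0.153), with 2 barcodes higher, and an S score of -0.0656, with 1 higher. In ERI3 its S score was the highest of 12 barcodes at -0.0797, against -0.153, and the G2M score of bc14-22-bc30-18173 was the highest at 0.0365, against -0.0630. These were also the lineages with ERI3 cells of more RNA than the rest.

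RNA content set 2 of the lineages apart in ERI2. bc14-55-bc30-37135 had a median of 24352.5 UMIs per cell (23067 to 25933) in ERI2, the highest of 14 barcodes, and bc14-74-bc30-34057 had 20599 (18565 to 22469), the second highest. bc14-89-bc30-6288 had 17033 and bc14-22-bc30-18173 had 15879, against 16600.5 for the other barcoded cells. In ERI1 the medians were 17667.5, 18013, 14457 and 19711, in the order printed above, against 17323, and bc14-55-bc30-37135 ranked 14 of 30 there. The RNA content of this lineage thus stood out in ERI2 and not in ERI1. In ERI3 bc14-22-bc30-18173 had 18663 UMIs (17060 to 25294), the highest of 12 barcodes, and bc14-55-bc30-37135 had 14877 (11750 to 18487), against 11419. In PAC2 bc14-74-bc30-34057 had 20756.5, the highest of 14, against 17092.5. In UNT cells the order was turned round, with 15945 UMIs for bc14-22-bc30-18173 and 14406 for bc14-55-bc30-37135, against 20801, and 98 of the other 102 barcodes with at least 10 cells were above the second of these. Nearly all these cells lay in cluster 5, where the other barcoded cells also had less RNA. Within cluster 5 the medians were 15853 and 14406, against 17286, so the gaps were smaller there.

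Barcode molecules per cell, counted over all barcodes of a cell, separated the lineages in the same way in both early rounds. In ERI1 the medians were 27.5 (19 to 41) for bc14-22-bc30-18173, 37 (23 to 52) for bc14-55-bc30-37135, 7 (5 to 11) for bc14-74-bc30-34057 and 9 (6 to 14) for bc14-89-bc30-6288, against 12. Only 1 of the 30 barcodes ranked was above bc14-55-bc30-37135, whose cells mostly held more than 1 barcode. With exactly 1 detected barcode, its medians were 5.5 in ERI1 (6 cells) and 12 in ERI2 (8 cells). Those of bc14-22-bc30-18173 were 24 and 18, and those of the other barcoded cells 10 and 7. The high ERI1 count of bc14-55-bc30-37135 was thus not seen in its few cells with 1 barcode. In ERI4 cells bc14-89-bc30-6288 had 12 molecules (11 to 13), against 29, with 9 of the other 10 barcodes above it. In ERI4 nuclei it had 374, against 360. Every nucleus has at least 1 barcode feature and the nuclear counts were left as deposited, so they cannot show whether its own signal was low. In UNT cells bc14-22-bc30-18173 had 21 and bc14-55-bc30-37135 had 26, against 21.

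The phases of bc14-89-bc30-6288 differed from the rest in opposite ways in ERI3 and ERI4 cells. In ERI3, G1 made up 52.5% (41.0 to 63.8) of its cells, against 40.6% of the others, and G2M 27.5%, against 41.4%. In ERI4 cells G1 made up 19.6% (9.36 to 33.9), against 41.3%, and S 37.0% (23.2 to 52.5), against 19.9%. Its median S score in ERI4 cells was -0.0432 (-0.121 to 0.0332), the highest of 11 barcodes, against -0.167. Within cluster 3 (18 cells of the lineage) the scores were 0.00934 and -0.190. Within cluster 2 (22 cells) they were -0.0676 and -0.0691, so of these clusters only cluster 3 showed the difference. Its ERI4 cells had a median of 25484 UMIs, against 20963, while its ERI3 cells had 10492.5, against 11419, and the part of depth in the phases was not tested. ERI3 and ERI4 cells come from different runs, and their calls differ in kind. Of the 80 ERI3 cells, 76 had fewer than 10 barcode molecules. Of the 46 ERI4 cells, 37 had 2 or more barcodes (80.4%, against 51.9% of the others). The part of these in the phases was not tested either. Neither the phase calls nor the scores measure a rate of division.

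The mitochondrial share of UMIs, which rises in damaged cells, varied little. In ERI2 its median was 3.58%, 3.61%, 3.52% and 3.36% for the 4 lineages, in the order printed above, against 3.75% for the others. In ERI3 it was 2.83%, 2.92% and 2.98% for bc14-22-bc30-18173, bc14-55-bc30-37135 and bc14-89-bc30-6288, against 2.96%. In ERI4 cells it was 4.32% for bc14-89-bc30-6288, against 4.71%. In UNT cells it was 4.33% for bc14-22-bc30-18173 and 3.95% for bc14-55-bc30-37135, against 4.03%. The widest gap among the cell conditions where a lineage had at least 10 cells was 0.415 percentage points, for bc14-22-bc30-18173 in ERI1, at 3.43% against 3.01%.

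bc14-55-bc30-37135 stood out for the number of barcodes detected in its cells. In ERI2, 67 of its 80 cells had exactly 2 different barcodes (83.8%) and 5 had 3 or more, while exactly 2 were found in 11.7% of the other barcoded cells. In ERI1, 20 of its 26 cells had 2 or more (76.9%), and in UNT cells 34 of 35, where 87.6% of the others also did. In UNT nuclei 9 of 59 had 2 or more (15.3%), against 22.1%. The authors' original call named 72 of the 80 ERI2 cells Doublet (90%), the highest of 14 barcodes, whose median was 10.3%. These cells received their single barcode only in later revisions, and the lineage made up 9.07% of ERI2 by the latest call, 2.00% by the first revision and 1.16% by the original. The table gives the number of barcodes in a cell but not their names, so whether the second was the same in all these cells is not known here. Cells with 2 or more had a median of 24929 UMIs and those with exactly 1 had 20459.5.

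The other lineages had fewer such cells in ERI2. The original call named Doublet 12 of 124 ERI2 cells of bc14-22-bc30-18173, 6 of 60 of bc14-74-bc30-34057 and 5 of 36 of bc14-89-bc30-6288. In other conditions some shares were higher. The original call named Doublet 10 of 16 ERI3 cells of bc14-22-bc30-18173 (62.5%, against 7.15% of the other barcoded cells). It also named so 35 of 46 ERI4 cells of bc14-89-bc30-6288 (76.1%, against 18.4%). For the UNT cells of bc14-22-bc30-18173 it was 81 of 153 (52.9%), near the 53.95% of the others. In UNT nuclei the original call named Negative 79 of 104 nuclei of bc14-22-bc30-18173, 40 of 59 of bc14-55-bc30-37135 and 3 of 3 of bc14-74-bc30-34057. In 1 condition, UNT nuclei, the original call also names pairs of barcodes, and the 4 lineages occur in 6, 11, 1 and 0 such pairs, each time with a different partner and never with one of the other 3.

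Cells of 1 lineage lay nearer each other in the authors' UMAP of ERI2 than their frequency alone would give, as did those of the median barcode. Of the 30 nearest ERI2 neighbours of a cell, those with the same barcode made up 17.3% for bc14-22-bc30-18173, 26.0% for bc14-55-bc30-37135, 15.0% for bc14-74-bc30-34057 and 5.65% for bc14-89-bc30-6288. Given their frequency, 13.96%, 8.97%, 6.70% and 3.97% would have the same barcode if position did not depend on it. The ratios were 1.24, 2.90, 2.24 and 1.42, against a median of 1.91 over 14 barcodes. bc14-55-bc30-37135 thus lay closest together of the 4, and it is also the lineage with the most UMIs and the most cells with 2 barcodes, whose part was not tested.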

How the data were processed

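Per the submitters' processing notes, reads were counted against mm10 with Cell Ranger 3.1.0 (run 1), Cell Ranger 4.0.0 (run 2) and Cell Ranger ARC 1.0.0 (run 3), and cells were clustered with Seurat 3.1.4. Used here were the cell table deposited by the authors, the UMAP coordinates and both barcode sequence lists. No gene expression matrix was analysed here. The deposited counts (UMIs, barcode molecules and detected barcodes per cell) were not normalized. The deposited percent values are mitochondrial shares of UMIs. The deposited score columns are S and G2M scores, which nuclei lack, and pseudotime. In all, 23 columns of the table were not used.

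The 4 barcodes and every comparison were chosen with earlier results of these data known. Named beside them are the most frequent ERI2 barcodes and the 2 with the most alike run 2 profile. The latest of 3 deposited barcode calls was used; how the authors revised them is not given in the sources used here. Doublets were handled only through these calls. In nuclei 1 was subtracted from the number of detected barcodes, since every nucleus has at least 1. The counts of barcode molecules in nuclei were not changed. The libraries shared between 0 and 134 cell barcodes, 0 of them in cells of the 4 lineages. Cells outside the study's stated filter were kept.

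Medians, shares, exact 95% intervals and ratios were computed with pandas 2.3.3 and scipy 1.17.1, and neighbours with scikit-learn 1.9.0. The ratios, their intervals and the shares of pairs were checked on simulated data. A ratio with 0 cells on 1 side was set against 3 cells and is a bound. Alternatives were the 2 earlier calls, all cells as denominator, cells with exactly 1 detected barcode, the stated filter, a window of UMI counts common to a run's conditions, other minimums of cells and folds, the largest cluster only, each other barcode counted once and another limit for G1. Requiring 10 barcode molecules was added after seeing the data.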

Additional observations from a re-analysis of the deposited data

Results flagged for a closer look

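The pseudotime of bc14-74-bc30-34057, set against the other barcoded cells of the same condition, went opposite ways after the second round of each drug. Its median was 0.414 above theirs in ERI2 and -6.3 from theirs, that is lower, in PAC2. The difference between the drugs was not tested. In both conditions most of its cells lay in cluster 7, which held 87.5% of the others in ERI2 and 36.1% of them in PAC2. Within cluster 7 its median was 0.670 above theirs in ERI2, with 59.95% of pairs higher. In PAC2 it was 0.146 above theirs there, with 49.5% of pairs higher. The opposite directions were thus not seen within cluster 7.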

How the results depend on the processing

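No paired analysis was possible because each condition has 1 library, and no replicate was left out for the same reason. The stated filter moved 0 of 197 values beyond their intervals. The share of the 4 lineages in ERI2 (34.0%) was 30.7% by the first revision of the call, 29.8% by the original, 28.9% with exactly 1 detected barcode, 30.3% in the UMI window, 46.1% with at least 10 barcode molecules and 23.9% of all cells. Of all cells it was 6.11% in ERI1 and 3.84% in ERI3, and with at least 10 molecules 3.26% in ERI3. Their ratio of ERI2 to ERI1 was 5.21 with at least 10 molecules, and that of ERI3 to ERI2 was 0.0708. The ratio of ERI3 to ERI2 by the first revision, the original call and exactly 1 barcode was 0.0267, 0.0182 and 0.0197 for bc14-22-bc30-18173 (0.0514 by the latest call), 0.165, 0.296 and 0.297 for bc14-55-bc30-37135 (0.0896), and 0.00598, 0.00627 and 0.00628 for bc14-74-bc30-34057 (0.0266). In the UMI window it was 0.203 for bc14-55-bc30-37135, and with at least 10 molecules 0.246 for bc14-89-bc30-6288. The ratio of ERI2 to ERI1 of bc14-55-bc30-37135 (4.73) was 2.58, 1.69 and 2.00 under the same 3 settings and 2.53 in the UMI window. Cluster 1 held 4.58% of the UNT cells of bc14-22-bc30-18173, and 0 of those with exactly 1 barcode.

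The ERI2 pseudotime difference by the first revision, exactly 1 barcode, the UMI window, at least 10 molecules, the largest cluster and each other barcode counted once was -0.812, -0.927, -0.392, -0.392, -0.402 and -0.252 for bc14-22-bc30-18173 (-0.658), -1.07, -1.07, -0.332, -0.618, -0.628 and -0.478 for bc14-55-bc30-37135 (-0.883), and 0.163, 0.0219, 0.836, 0.881, 0.670 and 0.820 for bc14-74-bc30-34057 (0.414). Under the last 3 it was 0.729, 0.781 and 0.940 for bc14-89-bc30-6288 (0.535). In UNT cells bc14-22-bc30-18173 had -1.21 within the condition's largest cluster and -5.01 with each other barcode counted once (-5.20). The -1.21 comes from cluster 1, with 7 of the lineage's 153 cells and 2977 of the 4899 other barcoded cells. Within cluster 5, with 140 cells of the lineage, the difference was -0.212, with 48.3% of pairs higher.

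By sign alone, the direction changed in 7 cases whose interval did not hold the point of no difference. The ratio of ERI4 to UNT nuclei of the 4 lineages was 3.84 by the original call (0.597). That of bc14-55-bc30-37135, whose interval holds 1, also turned, to 3.36 (0.615). The S score difference of bc14-55-bc30-37135 in ERI2 was -0.0531 by the first revision and -0.00905 in the UMI window (0.0527). Its ERI3 pseudotime difference was 0.209 by the first revision, 0.209 with exactly 1 barcode and 5.77e-09 in the largest cluster (-4.77). The last is a lost difference and no change of direction, since both medians were 22.7 there, from 5 cells of the lineage. The ERI4 pseudotime difference of bc14-89-bc30-6288 was 7.09 with each other barcode counted once (-3.23). Each cause was not tested.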
